A study of Mus musculus with 18 samples.

Results

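The forkhead genes encode transcription factors that share a winged-helix DNA-binding domain and are named Fox, then a subfamily letter, then a number. Members were the genes whose symbol is Fox with a letter from a to s and a number and that had a probe set annotated to that symbol alone, and where a gene had several such probe sets the one of highest mean represents it. This gave 41 members in 17 subfamilies, on 16 chromosomes, of 18820 genes measured in the same way. No measured change entered the choice, although earlier results of these data were known when the family was picked. Foxm1 and Foxp3 had only probe sets that carry other symbols as well and were not counted as members.

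The series holds 18 arrays of RNA from C2 iMEFs (Affymetrix Mouse Gene 1.1 ST), 2 for each of 9 groups. C2 is 1 clone, obtained by limiting dilution, of mouse embryonic fibroblasts that carry Ezh2 flox/Δ and ROSA26-CreERT2 and were transformed with a c-Myc retrovirus, so that all groups share this genotype and this oncogene, and no second clone was on these arrays. Ezh2 and Ezh1 are the alternative catalytic subunits of Polycomb-repressive complex 2 (PRC2), which methylates lysine 27 of histone H3. In the time course, cells received vehicle or tamoxifen, which makes the Cre recombinase enter the nucleus and cut out the floxed Ezh2 allele. Tamoxifen-treated cells were taken 5, 18 and 32 days later. The 1 vehicle group, whose labels give no day, was the reference at all of these times. Time in culture and tamoxifen itself therefore cannot be told apart from the loss of Ezh2 in these comparisons. In the rescue experiment, the groups were Ezh2 -/- (called Ezh2 null here), Ezh1 pre-rescue and Ezh2 pre-rescue, in which a retroviral Ezh1 or Ezh2 was expressed before the endogenous gene was deleted, Ezh2 post-rescue, in which Ezh2 was returned after deletion, and a control that keeps Ezh2. The study describes deletion by tamoxifen, and retroviral infection with hygromycin selection for rescue. The titles of these arrays give no vector, treatment or day. Tamoxifen, infection, selection and time in culture may differ between these groups and cannot be told apart from Ezh2 status. The study calls the replicates biological, the labels do not say whether the 2 of a group were separate cultures, and the p-values measure the spread between these arrays of 1 clone.

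Forkhead factors bind closely related DNA motifs, and their functions differ mainly through where and when each gene is expressed. Foxa factors open chromatin in endoderm and in hormone-responsive epithelia, Foxf and Foxc factors pattern mesenchyme, Foxo factors respond to insulin and growth factor signalling, and Foxp factors are mostly repressors in lung, brain and lymphoid cells. Many developmental forkhead genes have CpG-rich promoters, the class of promoter on which PRC2 commonly acts in embryonic cells.

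Replicate arrays correlated at 0.994 to 0.999 over all genes, and the replicate correlation over the 41 members was lowest, at 0.968, in Ezh1 pre-rescue cells. Of 9 fibroblast markers, 8 (Thy1 was the other) stood above the median of all genes on both arrays of every group, while none of 7 epithelial and none of 5 endothelial markers did in any group. As log2 values, fibroblast markers averaged 9.48 to 9.50 on the vehicle arrays, 9.74 to 9.80 on the day 5 arrays, 9.14 to 9.17 on the day 18 arrays and 8.92 to 9.003 on the day 32 arrays. Against vehicle, 5 of the 9 were higher and 0 lower at day 5, against 11% and 5.72% of all genes. At day 18, 1 was higher and 4 lower, against 15.2% and 10.5% of all genes. At day 32, 0 were higher and 4 lower, against 18.4% and 14.2% of all genes. The part of these shifts in the results was not tested. The Ezh2 probe set was not lower at day 32 than in vehicle cells (log2 change 0.38 ± 0.0838, adjusted p = 0.0068) and checked nothing about the deletion, since it need not lie in the excised part. Ezh1 fell by 0.99 ± 0.0767 at day 32 (adjusted p = 1.21e-05). Levels are compared only within an experiment, because each experiment was normalized by itself. Medians over the 18820 genes were 5.50 to 5.70 in the time course and 6.50 to 6.66 in the rescue experiment.

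Promoter windows of 250 bases before the start were found in RefSeq (GRCm38.p6) for 27 of the 41 members, 31 windows in all. Foxp2 and Foxf1 were not among the 27. Below are those of Foxf2 and Foxa1, which both rose at least 2-fold at day 18 and day 32, of Foxc1, the next measured gene beside Foxf2, which was not called in any comparison, and of Foxo3, which fell. All are given 5′ to 3′ on the strand of the gene, with each CpG dinucleotide in capitals, at chr13:31625566-31625815 (plus strand, Foxf2), chr12:57546112-57546361 (minus strand, Foxa1), chr13:31806396-31806645 (plus strand, Foxc1) and chr10:42276696-42276945 (minus strand, Foxo3).
Foxf2: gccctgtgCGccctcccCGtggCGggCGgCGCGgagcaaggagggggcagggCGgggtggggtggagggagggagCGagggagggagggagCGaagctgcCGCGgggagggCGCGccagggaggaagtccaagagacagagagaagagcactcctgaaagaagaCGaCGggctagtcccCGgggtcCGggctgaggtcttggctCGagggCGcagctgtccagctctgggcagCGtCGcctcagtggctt
Foxa1: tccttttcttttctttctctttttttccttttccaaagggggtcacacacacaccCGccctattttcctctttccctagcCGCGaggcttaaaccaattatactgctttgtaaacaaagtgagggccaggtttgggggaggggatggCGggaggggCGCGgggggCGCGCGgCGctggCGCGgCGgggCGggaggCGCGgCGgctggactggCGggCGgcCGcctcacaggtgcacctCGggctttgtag
Foxc1: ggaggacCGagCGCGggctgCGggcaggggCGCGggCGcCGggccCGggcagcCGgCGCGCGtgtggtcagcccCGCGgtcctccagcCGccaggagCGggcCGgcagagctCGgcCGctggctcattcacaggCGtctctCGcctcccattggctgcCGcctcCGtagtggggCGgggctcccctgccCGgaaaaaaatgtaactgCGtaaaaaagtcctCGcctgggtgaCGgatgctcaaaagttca
Foxo3: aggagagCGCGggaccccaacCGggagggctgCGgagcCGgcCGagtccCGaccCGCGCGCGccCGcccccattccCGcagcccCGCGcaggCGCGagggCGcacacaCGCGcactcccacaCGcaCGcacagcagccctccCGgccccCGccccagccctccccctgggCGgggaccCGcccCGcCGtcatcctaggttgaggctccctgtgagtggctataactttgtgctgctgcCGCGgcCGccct
The 4 windows held 21, 21, 29 and 31 CpGs in this order, against a median of 17 over the members' 31 windows and of 6 over all 32841 windows. The ratio of observed to expected CpGs was 0.72 in the Foxf2 window, 0.89 in the Foxa1 window, 0.93 in the Foxc1 window and 0.88 in the Foxo3 window, so the genes that rose, the neighbour that did not and the gene that fell all had CpG-rich starts. The forkhead motif GTAAACA (7 letters, either strand) was found in the Foxa1 window alone among the 31, with its first base 141 bases before the start, and 3.17% of all windows held it. The GC box GGGCGG was in 23 of the 31 windows and in 32.7% of all windows, and TATAAA in 2 of the 31 and in 12.4% of all windows. All motifs were searched on both strands, and none of the 3 contains another.

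**Figure D1:**
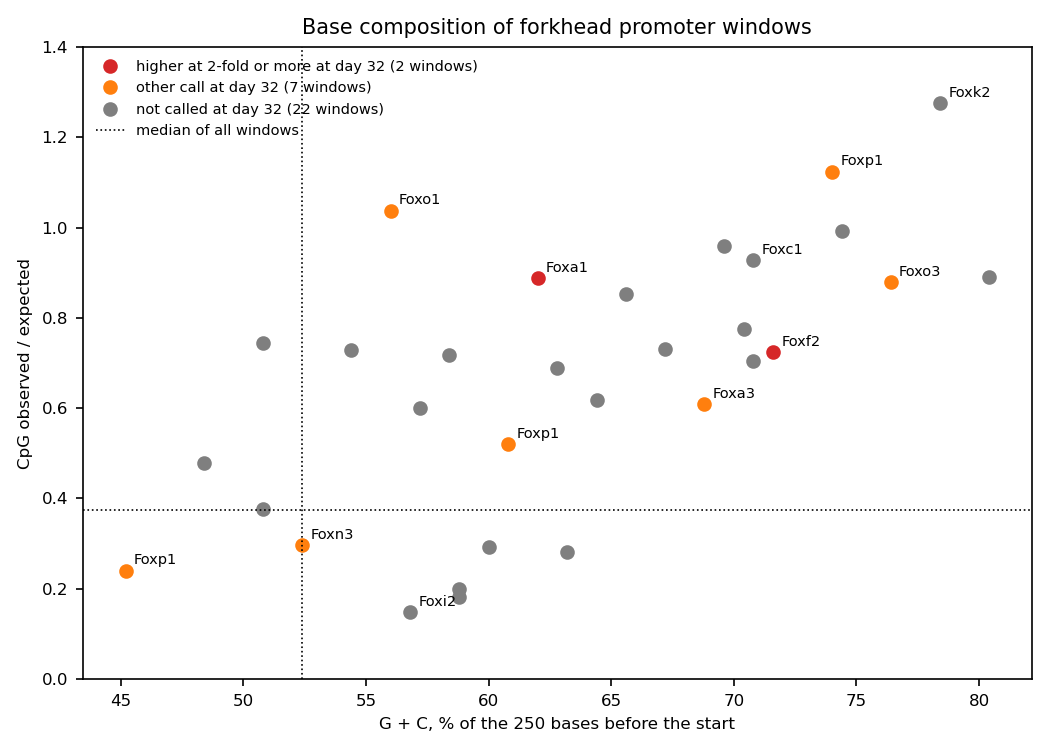
Each point is 1 promoter window of a forkhead gene, with the share of G and C in the 250 bases before the start (%) on the x axis and the observed over expected number of CpGs on the y axis, coloured by the test of day 32 against vehicle, and dotted lines mark the medians of all windows. The 2 windows of genes that rose at least 2-fold (Foxf2 and Foxa1) lie among those of genes that were not called; Foxp2 and Foxf1, which rose more, are not plotted.

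On the time course arrays, 23 members stood below the median of all genes on all 8 arrays, 13 above it on all 8, and 5 (Foxa1, Foxf1, Foxo4, Foxo6 and Foxp2) on some. The 13 always above it were Foxc1, Foxc2, Foxd1, Foxj2, Foxj3, Foxk1, Foxk2, Foxn2, Foxn3, Foxo1, Foxo3, Foxp1 and Foxp4. Tissue-restricted members such as Foxh1, the Smad partner of nodal signalling, Foxj1, the factor of motile cilia, Foxl2, the factor of ovarian granulosa cells, and Foxn1, the factor of thymic epithelium, were below it on every one of these arrays. A place below or above the median describes the probe set, not an amount of RNA.

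Over 13 comparisons between groups, 17 members were called at an adjusted p under 0.05 at least once and 24 never were. The share of all genes called at least once is not given here, so the 2 counts are not read as a trait of the family. These counts rest on the probe set that represents each member. Only 4 members, Foxp2, Foxf1, Foxf2 and Foxa1, were called at a change of 2-fold or more, and the share of all genes called at that size is not given here. The 24 that were never called varied by 0.135 to 0.585 log2 units over the 8 time course arrays. The plot of changes against vehicle and control shows 7 of these comparisons.

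**Figure D2:**
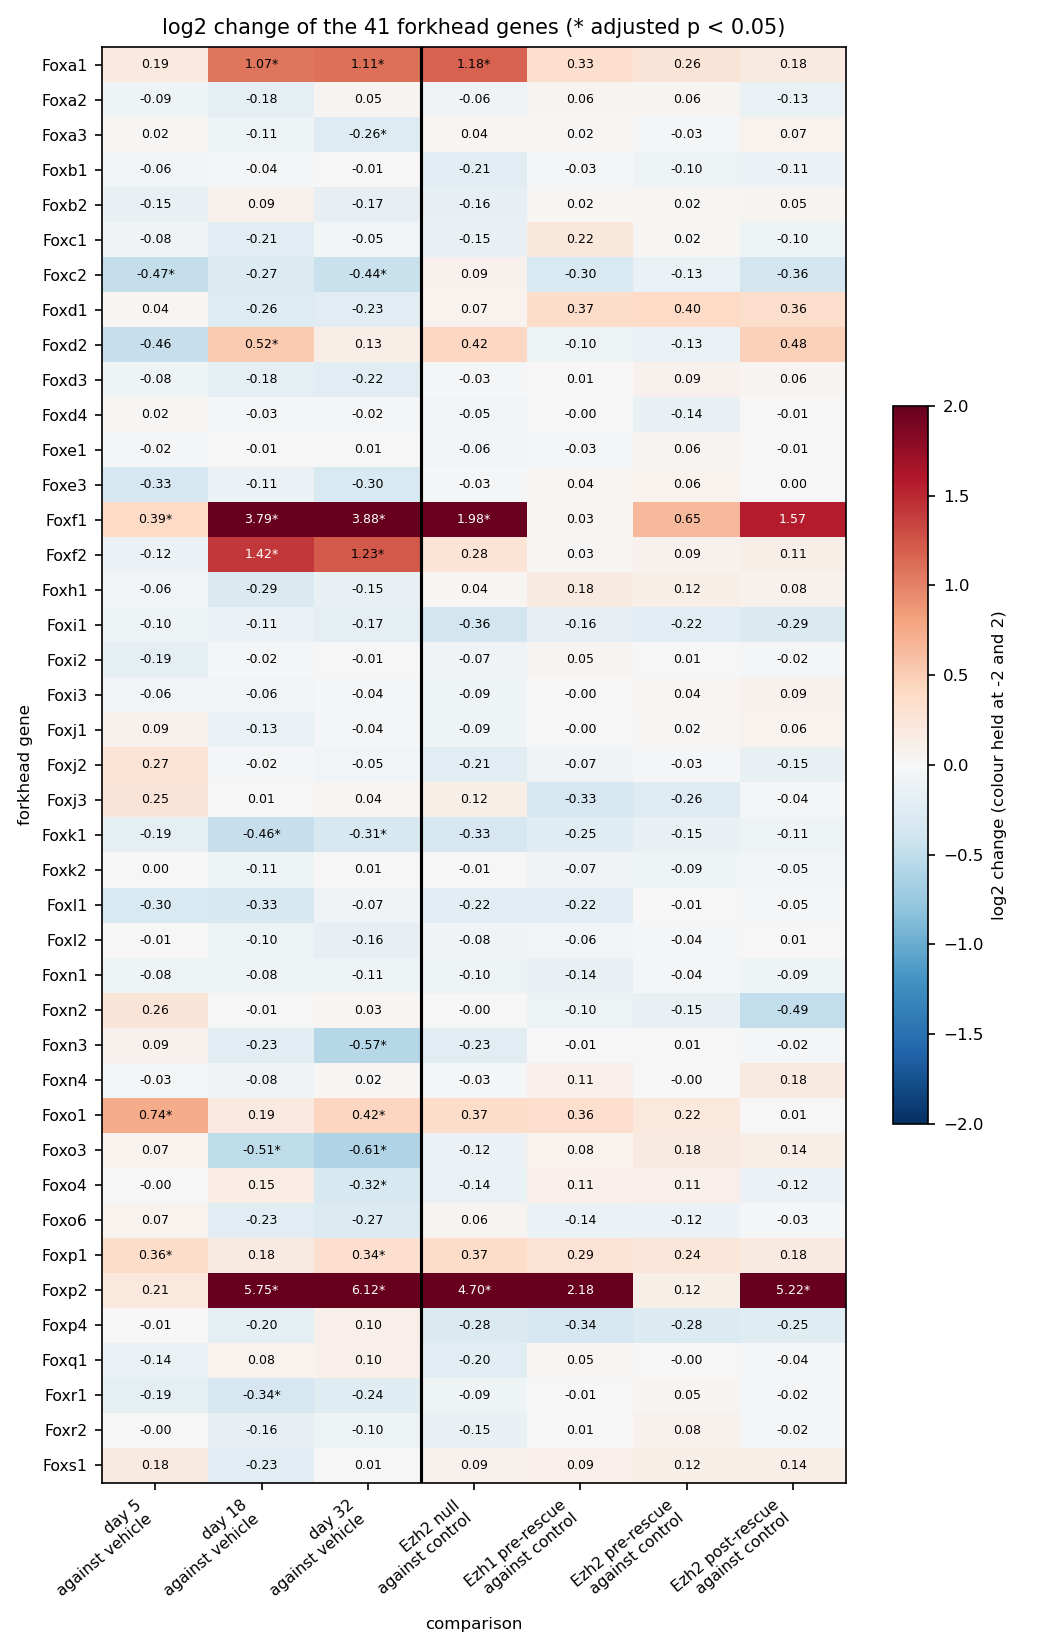
Rows are the 41 forkhead genes and columns 7 comparisons, each cell giving the log2 change of the first-named group against the second, with an asterisk at an adjusted p under 0.05 and colours held at -2 and 2. Foxp2, Foxf1, Foxf2 and Foxa1 carry the dark cells at day 18 and day 32, and Foxf2 does not in the rescue experiment.

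The time course asked which members change, and when, after Ezh2 is deleted. At day 5, 3 members were higher and 1 was lower than in vehicle cells, against 11% and 5.72% of all genes. Foxo1, a FoxO factor held out of the nucleus by insulin and Akt signalling, rose by 0.74 ± 0.1 on the log2 scale (adjusted p = 0.00117), Foxf1 by 0.39 ± 0.0856 (adjusted p = 0.0127) and Foxp1, a transcriptional repressor needed for B cell and heart development, by 0.36 ± 0.0741 (adjusted p = 0.00921). Foxc2, a factor of lymphatic vessels and mesenchyme, fell by 0.47 ± 0.108 (adjusted p = 0.016). These are 7.32% and 2.44% of the members, both below the background. With each array centred on its median, 1 member was higher and 8 were lower. This centring moved the median change of all genes from -0.005 to -0.15, and the share of all genes called with it is not given here. In bulk RNA such as this, more cells with a transcript and more transcript per cell cannot be told apart.

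At day 18, 5 members were higher and 3 lower than in vehicle cells, against 15.2% and 10.5% of all genes, and at day 32, 6 were higher and 6 lower, against 18.4% and 14.2% of all genes. The members' shares, 12.2% higher and 7.32% lower at day 18, and 14.6% in each direction at day 32, lie near or below those of all genes. The median change over the members was -0.10 at day 18 and -0.04 at day 32, beside -0.02 at both times over all genes. With each array centred on its median, the median change of all genes moved by over 0.1, to -0.18 at day 18 and -0.14 at day 32, and the counts became 4 higher and 18 lower at day 18, and 5 higher and 13 lower at day 32. The shares of all genes called with this centring are not given here. Every member called at 2-fold or more against vehicle was higher. The shares of all genes called at 2-fold or more in each direction are not given here, so this direction is not read as particular to the family.

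Foxp2, a repressor known for its part in speech and in lung and brain development, had the largest change of the family. Its log2 values were 3.84 and 3.39 in vehicle cells, 3.75 and 3.90 on day 5 arrays, 9.28 and 9.44 on day 18 arrays, and 9.79 and 9.68 on day 32 arrays. The day 5 arrays overlapped the vehicle arrays, and every array of day 18 and day 32 stood far above both. The change was 5.75 ± 0.137 at day 18 (adjusted p = 1.61e-08), and the day 32 change against vehicle was 6.12 ± 0.137 (adjusted p = 9.03e-09). The vehicle values lie close to or below the mean of the 6 blood markers on the same arrays (3.71 to 3.81) and below that of the epithelial markers (4.03 to 4.19), and the deposited values carry no detection call, so that the fold over vehicle is not given. At day 5 it was 0.21 ± 0.137 (adjusted p = 0.358), and day 32 against day 18 gave 0.37 ± 0.137 (adjusted p = 0.177).

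Foxf1, a factor of lung and gut mesenchyme downstream of hedgehog signals, was already above vehicle at day 5. Its log2 values were 4.29 and 4.18 in vehicle cells, 4.54 and 4.72 on day 5 arrays, 8.06 and 7.99 on day 18 arrays, and 8.08 and 8.14 on day 32 arrays. The replicates lay close to each other at every time, and none of the 3 later groups overlapped vehicle. The vehicle values lie close to the means of the epithelial markers on the same arrays (4.03 to 4.19). The change was 3.79 ± 0.0856 at day 18 (adjusted p = 1.33e-08), and the day 32 change against vehicle was 3.88 ± 0.0856 (adjusted p = 9.03e-09), and day 18 stood 3.39 ± 0.0856 above day 5. The small day 5 call was lost without vehicle replicate 2 (adjusted p = 0.0597), without day 5 replicate 2 (adjusted p = 0.092), where arrays were centred on their medians (adjusted p = 0.0649) and in 1 fit over all 18 arrays (adjusted p = 0.344).

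Foxf2, the close relative of Foxf1 with roles in palate and gut mesenchyme, was called at day 18 and day 32 and not at day 5 (-0.12 ± 0.125, adjusted p = 0.6). Its log2 values were 4.14 and 4.06 in vehicle cells, 3.84 and 4.14 on day 5 arrays, 5.36 and 5.67 on day 18 arrays, and 5.28 and 5.39 on day 32 arrays. Day 5 overlapped vehicle, and both later groups stood above it. The vehicle values lie within the means of the epithelial markers on the same arrays (4.03 to 4.19). Foxf2 stood below the median of all genes on every array of both experiments. The change was 1.42 ± 0.125 at day 18 (adjusted p = 3.99e-05), and the day 32 change against vehicle was 1.23 ± 0.125 (adjusted p = 5.96e-05).

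Foxa1, a pioneer factor of breast, prostate and gut epithelium, had log2 values of 4.94 and 5.07 in vehicle cells, 5.18 and 5.20 on day 5 arrays, 5.94 and 6.20 on day 18 arrays, and 6.05 and 6.17 on day 32 arrays. The change was 1.07 ± 0.0985 at day 18 (adjusted p = 5.22e-05), and the day 32 change against vehicle was 1.11 ± 0.0985 (adjusted p = 2.71e-05), and 0.19 ± 0.0985 at day 5 (adjusted p = 0.237). Of its relatives, Foxa2 changed by 0.05 at day 32 and was never called, and the Foxa3 probe set, with log2 values of 2.52 and 2.47 at day 32 against 2.78 and 2.73 in vehicle cells, was called at -0.26 ± 0.0851 (adjusted p = 0.0417). These values lie below the means of the blood markers, and the Foxa3 call was lost without either replicate of vehicle, day 5 or day 32, at adjusted p-values of 0.0598 to 0.17, and with quantile normalization (adjusted p = 0.071). The 7 epithelial markers averaged 3.99 to 4.03 on the day 32 arrays and 4.03 to 4.19 on the vehicle arrays.

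**Figure D3:**
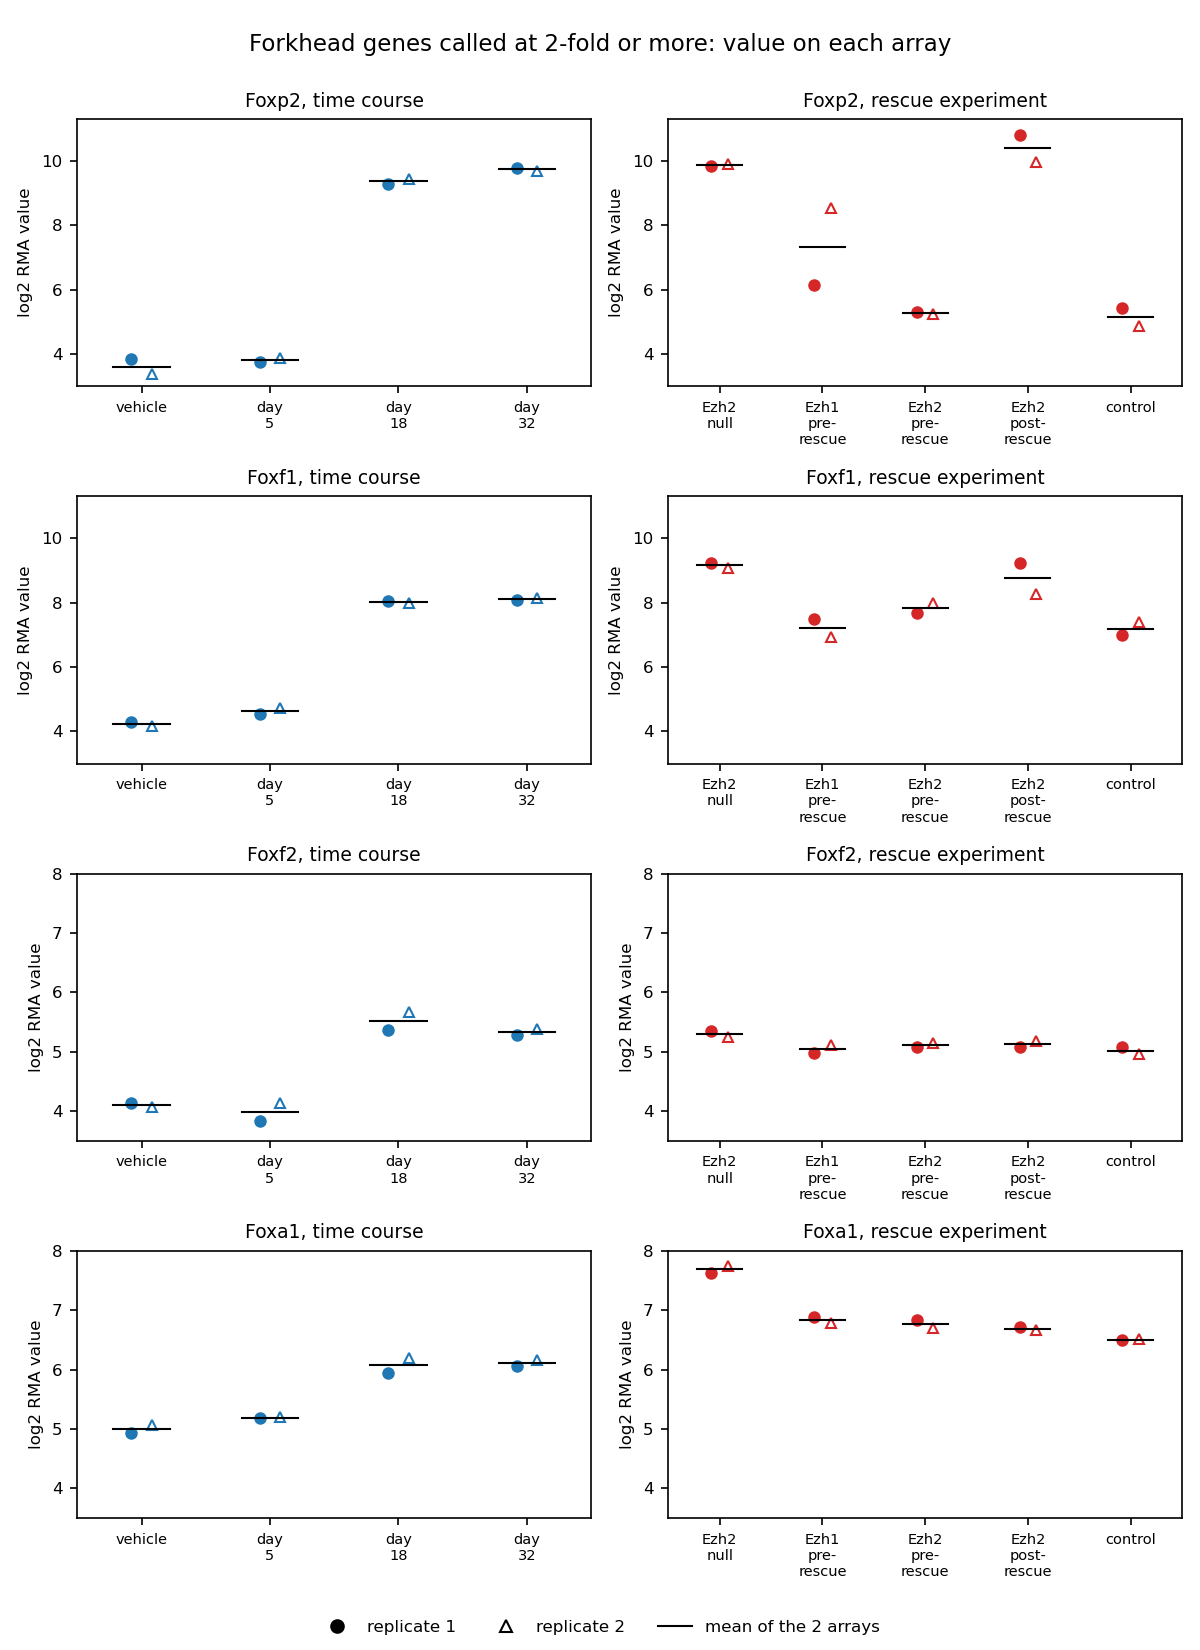
Points are the log2 RMA values of Foxp2, Foxf1, Foxf2 and Foxa1 on single arrays (filled circle, replicate 1, open triangle, replicate 2) and lines the mean of the 2 arrays, with the time course on the left and the rescue experiment on the right. In the time course all 4 genes step up between day 5 and day 18, and in the rescue experiment Foxa1 in Ezh2 post-rescue cells lies near control while Foxp2 does not.

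The calls on the other members were all under 2-fold. In the FoxO subfamily, Foxo1 had log2 values of 7.88 and 8.19 in vehicle cells, 8.76 and 8.79 on day 5 arrays, 8.25 and 8.20 on day 18 arrays, and 8.49 and 8.44 on day 32 arrays. It peaked at day 5 and was 0.55 ± 0.1 lower at day 18 than at day 5 (adjusted p = 0.00233), and its day 32 change of 0.42 ± 0.1 (adjusted p = 0.00922) was lost without day 32 replicate 1 (adjusted p = 0.0576) and in 1 fit over all 18 arrays (adjusted p = 0.0587). Foxo3, a factor of cell cycle arrest and apoptosis, was 8.27 and 8.25 in vehicle cells, 8.21 and 8.45 on day 5 arrays, 7.78 and 7.72 on day 18 arrays, and 7.68 and 7.64 on day 32 arrays. It fell by 0.51 ± 0.0895 at day 18 (adjusted p = 0.00258), and day 32 stood below vehicle by 0.61 ± 0.0895 (adjusted p = 0.000626), while Foxo1 was higher at day 32. Foxo4 was 5.86 and 5.81 in vehicle cells, 5.86 and 5.81 on day 5 arrays, 6.03 and 5.93 on day 18 arrays, and 5.57 and 5.46 on day 32 arrays, and was the single member called between day 32 and day 18, where it fell by 0.47 ± 0.0769 (adjusted p = 0.0119), against 2.75% of all genes lower. Against vehicle it fell by 0.32 ± 0.0769 at day 32 (adjusted p = 0.0104). The Foxo4 calls were lost without day 32 replicate 2 (adjusted p = 0.101 against day 18 and 0.0817 against vehicle), without day 18 replicate 1 (adjusted p = 0.109 against day 18) and without vehicle replicate 1 (adjusted p = 0.0508 against vehicle), and in 1 fit over all 18 arrays (adjusted p = 0.106 against day 18 and 0.075 against vehicle). Foxo6 was never called.

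Among members with broad expression, Foxp1 had log2 values of 7.84 and 7.78 in vehicle cells, 8.17 and 8.17 on day 5 arrays, 7.98 and 8.004 on day 18 arrays, and 8.21 and 8.09 on day 32 arrays. It was 0.34 ± 0.0741 higher at day 32 (adjusted p = 0.00611), a call lost without day 32 replicate 1 (adjusted p = 0.0583), as the day 5 call was without either day 5 replicate (adjusted p = 0.0502 and 0.0504). Both were also lost with each array centred on its median, which gave 0.22 at either time (adjusted p = 0.0672 at day 5 and 0.0526 at day 32), and in 1 fit over all 18 arrays (adjusted p = 0.0998 and 0.0754). Foxn3, a forkhead factor tied to cell cycle checkpoints, fell by 0.57 ± 0.0959 at day 32 (adjusted p = 0.00134), with 7.81 and 7.99 at day 32 against 8.53 and 8.41 in vehicle cells. Its second probe set gave -0.31 ± 0.117 at day 32 (adjusted p = 0.0813). Foxk1, a regulator of metabolic genes, fell by 0.46 ± 0.0757 at day 18 (adjusted p = 0.00168), and day 32 stood below vehicle by 0.31 ± 0.0757 (adjusted p = 0.0101), but its second, dimmer probe set gave 0.02 ± 0.116 and -0.06 ± 0.116, and the mean of both probe sets was not called (adjusted p = 0.0696 and 0.101). The day 32 call of Foxk1 was also lost without day 32 replicate 1 (adjusted p = 0.0628). Foxk2, its relative and the member with the highest mean of the pair, was 9.74 and 9.74 at day 32 and 9.71 and 9.74 in vehicle cells.

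Foxc2 was 6.19 and 6.34 in vehicle cells, 5.71 and 5.88 on day 5 arrays, 5.90 and 6.09 on day 18 arrays, and 5.93 and 5.72 on day 32 arrays, with a fall of 0.44 ± 0.108 at day 32 (adjusted p = 0.0113). Both Foxc2 calls were lost without vehicle replicate 2 (adjusted p = 0.08 at day 5 and 0.0692 at day 32), the day 5 call without day 5 replicate 1 (adjusted p = 0.113) and the day 32 call without day 32 replicate 2 (adjusted p = 0.0918). Foxd2, a gene of kidney and craniofacial mesenchyme, was 4.80 and 4.52 in vehicle cells, 4.00 and 4.40 on day 5 arrays, 5.10 and 5.27 on day 18 arrays, and 4.91 and 4.68 on day 32 arrays. Its values were lowest on day 5 arrays and highest on day 18 arrays, and it was called at day 18 against vehicle (0.52 ± 0.148, adjusted p = 0.029) and against day 5 (0.98 ± 0.148, adjusted p = 0.000741). The call against vehicle was lost without vehicle replicate 2 (adjusted p = 0.156) and without either day 18 replicate (adjusted p = 0.0564 and 0.158), and with quantile normalization (adjusted p = 0.0787) or median centring (adjusted p = 0.0754). Foxr1 had log2 values of 3.36 and 3.54 at day 18 against 3.89 and 3.69 in vehicle cells, all near the means of the blood markers, and was called at -0.34 ± 0.0937 (adjusted p = 0.0256), a call lost without vehicle replicate 1 (adjusted p = 0.15) and without day 18 replicate 1 (adjusted p = 0.169).

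**Figure D4:**
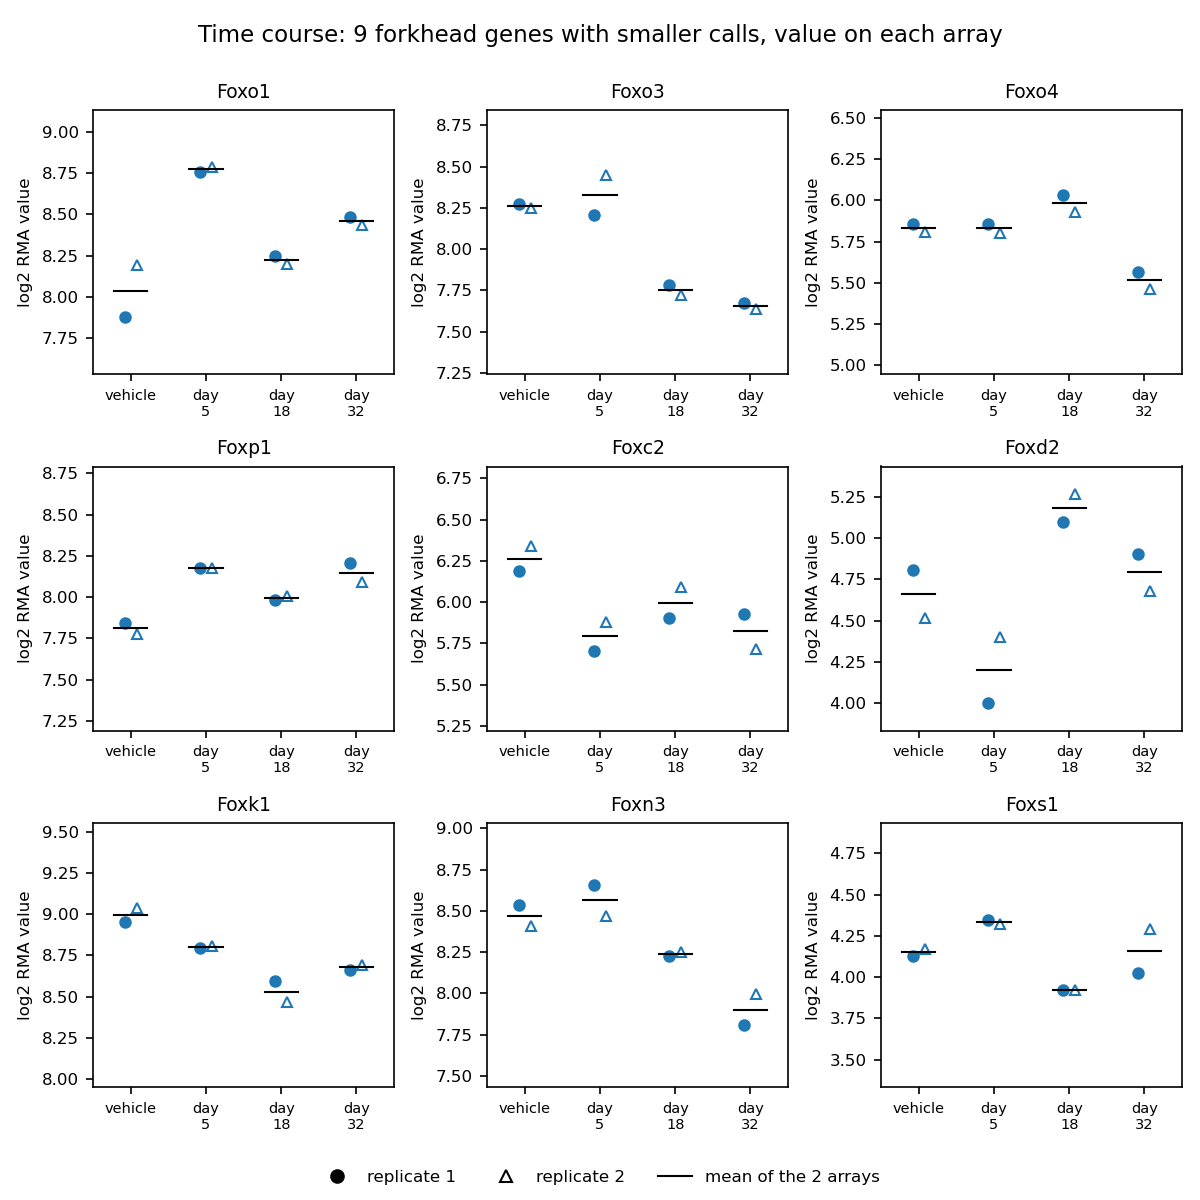
Points are log2 RMA values of 9 forkhead genes on the 8 time course arrays (filled circle, replicate 1, open triangle, replicate 2), lines are means of 2 arrays, and each y axis spans 1.6 log2 units. Foxo1 is highest at day 5, Foxo3 and Foxn3 are lowest at day 32, and Foxd2 is lowest at day 5 and highest at day 18.

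Between day 18 and day 5, 5 members were higher and 7 lower, against 15.6% and 16.1% of all genes. The 5 higher were Foxp2 (5.54 ± 0.137), Foxf1, Foxf2 (1.53 ± 0.125), Foxd2 and Foxa1 (0.88 ± 0.0985). The 7 lower were Foxo3 (by 0.58), Foxo1, Foxs1, a gene of perivascular cells (by 0.41), Foxn3 (by 0.32), Foxd1, a gene of kidney stroma (by 0.30), Foxj2 (by 0.29) and Foxk1 (by 0.27). The calls of Foxd1, Foxj2, Foxk1 and Foxn3 were each lost without 3 or more single arrays, at adjusted p-values of 0.0652 to 0.274, among them day 18 replicate 2 for all 4 (adjusted p = 0.0999 for Foxd1, 0.163 for Foxj2, 0.157 for Foxk1 and 0.0946 for Foxn3). With the mean of its probe sets Foxk1 changed by -0.13 (adjusted p = 0.267), and its second probe set alone gave 0.01 ± 0.116. Foxj2 and Foxn3 were also not called in 1 fit over all 18 arrays (adjusted p = 0.0758 and 0.111), nor Foxj2 with a replicate block (adjusted p = 0.0559). The fibroblast markers moved between these times too, with 7 of 9 lower at day 18 than at day 5, and their part in the members' changes was not tested.

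The other members with the highest mean of their subfamily were not called at day 32. At day 32 against vehicle, Foxb2 changed by -0.17, Foxc1 by -0.05, Foxd1 by -0.23, Foxe3, a lens factor, by -0.30, Foxh1 by -0.15, Foxi3 by -0.04, Foxj3 by 0.04, Foxk2 by 0.01, Foxl2 by -0.16, Foxn2 by 0.03, Foxq1 by 0.10, Foxr1 by -0.24 and Foxs1 by 0.01. Over the 29 members that were not called at day 32 the change ran between -0.30 and 0.13. The largest standard error of a member in the time course was 0.165.

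The large changes did not extend to the neighbouring forkhead genes. Foxf1 lies between Irf8 and Mthfsd on chromosome 8, with Foxc2 and Foxl1, a factor of gut mesenchyme, as the next measured genes on the Mthfsd side. At day 32, beside 3.88 for Foxf1, the change was -0.23 ± 0.0933 for Irf8 (adjusted p = 0.0925), -0.15 ± 0.0696 for Mthfsd (adjusted p = 0.131), -0.44 ± 0.108 for Foxc2 and -0.07 ± 0.108 for Foxl1 (adjusted p = 0.666). The forkhead gene that rose and the one that fell thus lay with 1 measured gene between them. Farther out on the Irf8 side, Emc8 and Cox4i1 were higher by 0.66 ± 0.097 and 0.30 ± 0.0685 (adjusted p = 0.000591 and 0.00716). Foxf2 lies between Foxq1 and Foxc1 on chromosome 13, which changed by 0.10 ± 0.0999 and -0.05 ± 0.0959 (adjusted p = 0.488 and 0.763). The second probe set of Foxq1 gave -0.05 ± 0.097 at day 32 (adjusted p = 0.751). It was lower at day 18, by 0.37 ± 0.097 (adjusted p = 0.0275). Of the measured genes beside Foxp2 on chromosome 6, Mdfic rose by 0.78 ± 0.0698 (adjusted p = 2.78e-05) and Ppp1r3a changed by 0.27 ± 0.104 (adjusted p = 0.0758). Of those beside Foxa1 on chromosome 12, Ttc6 rose by 0.50 ± 0.105 (adjusted p = 0.00495) and Slc25a21 changed by 0.01 ± 0.123 (adjusted p = 0.967). In Ezh2 null against control cells Ttc6 changed by 0.04 ± 0.123 (adjusted p = 0.914). These neighbour calls stand beside 18.4% of all genes higher and 14.2% lower at day 32.

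**Figure D5:**
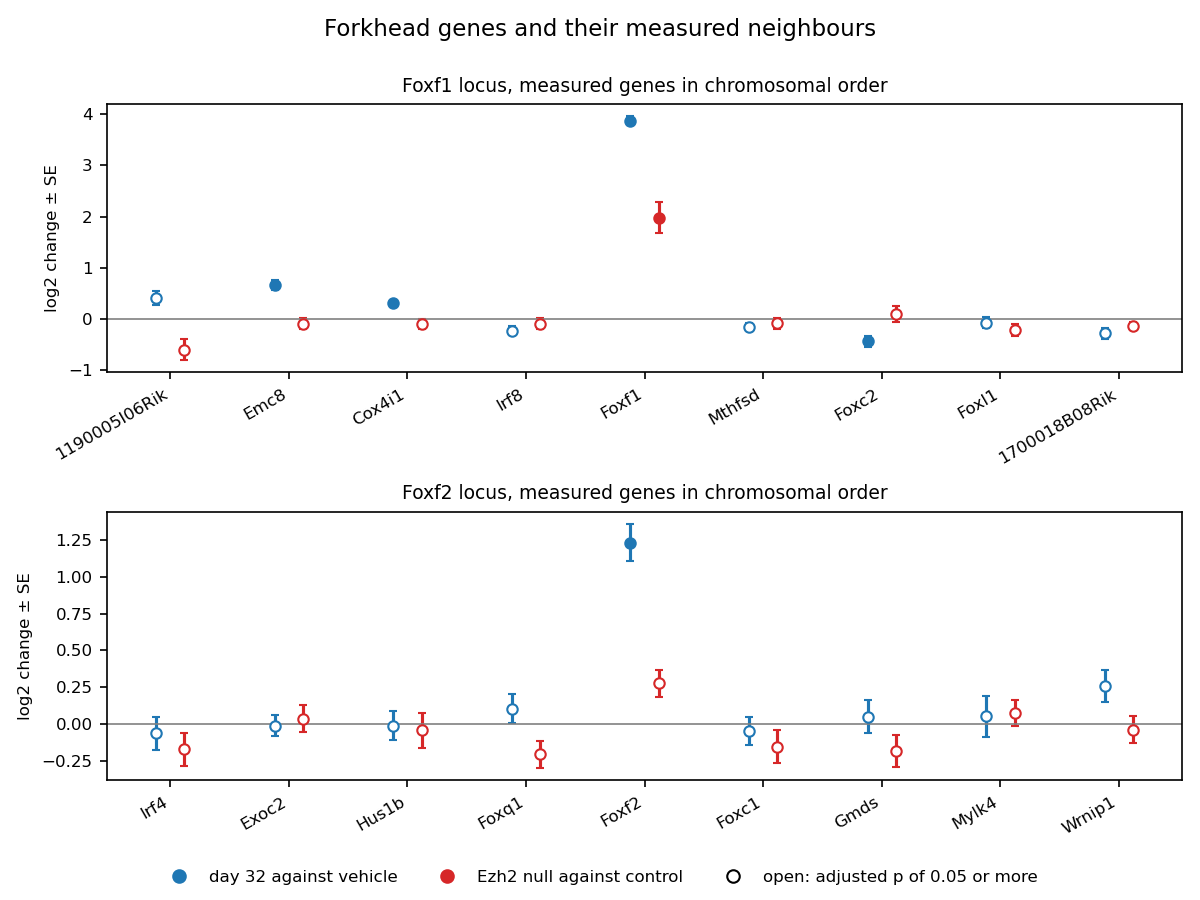
Points are log2 changes with their standard errors for the measured genes around Foxf1 (top) and Foxf2 (bottom) in chromosomal order, without distance, at day 32 against vehicle (blue) and in Ezh2 null against control cells (red), filled at an adjusted p under 0.05. Foxf1 and Foxf2 stand above their forkhead neighbours Foxc2, Foxl1, Foxq1 and Foxc1 at day 32.

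The rescue experiment asked whether the same members differ between cells without Ezh2 and cells that keep or regain it. In Ezh2 null against control cells, 3 members were higher, against 1.2% of all genes, and none was lower (in either direction, 8 members had an unadjusted p under 0.05 in limma and 5 were called in 1 fit over all 18 arrays). These were Foxp2, Foxf1 and Foxa1. Foxp2 was 9.83 and 9.91 in Ezh2 null cells against 5.44 and 4.89 in control cells, a change of 4.70 ± 0.657 (adjusted p = 0.0169). Foxf1 was 9.24 and 9.08 against 6.98 and 7.38, a change of 1.98 ± 0.302 (adjusted p = 0.0219). Foxa1 was 7.63 and 7.75 against 6.50 and 6.51, a change of 1.18 ± 0.0874 (adjusted p = 0.00155). The 3 genes showed this within each replicate number too, with Foxp2 at 4.39 and 5.02, Foxf1 at 2.25 and 1.70, and Foxa1 at 1.13 and 1.24. The fibroblast markers averaged 9.50 to 9.81 on the Ezh2 null arrays and 9.80 to 10.15 on the control arrays. The Foxp2 call was lost without control replicate 2 (adjusted p = 0.0641) and without Ezh2 null replicate 2 (adjusted p = 0.0792), and the Foxf1 call without either Ezh2 null replicate (adjusted p = 0.0541 and 0.113).

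Foxf2 was not called in Ezh2 null against control cells. It was 5.34 and 5.25 in Ezh2 null cells against 5.08 and 4.96 in control cells, a difference of 0.28 ± 0.0931 (95% interval 0.06 to 0.49, adjusted p = 0.208). These values lie below the means of the epithelial markers, 5.45 to 5.54 on Ezh2 null and 5.50 to 5.57 on control arrays. The part of low signal in the Foxf2 results was not tested. The test of the 2 changes against each other, Ezh2 null minus control less day 32 minus vehicle, called 3 members, against 8.12% of all genes. These were Foxf1 (-1.90 ± 0.338, adjusted p = 0.00484), Foxf2 (-0.95 ± 0.167, adjusted p = 0.00459) and Foxo3 (0.49 ± 0.139, adjusted p = 0.049). Foxf1 and Foxf2 therefore changed less in the rescue experiment, and Foxo3, which fell at day 32, changed there by -0.12. The difference was -1.42 ± 0.73 for Foxp2 (adjusted p = 0.3) and 0.08 ± 0.136 for Foxa1 (adjusted p = 0.839). The experiments also differ in their arrays' spread and normalization, and with equal standard deviations on all arrays the Foxo3 difference was no longer called (adjusted p = 0.0669). Foxf1 stood above the median of all genes on all 10 rescue arrays, but on 4 of the 8 time course arrays, those of vehicle not among them. The rescue labels give no day after the deletion, so an unstated time is set against day 32. The part of starting level and time in these differences was not tested.

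In cells given retroviral Ezh2 before the deletion, Foxp2 stood near its control level. It was 5.31 and 5.25 in Ezh2 pre-rescue cells, a change of -4.59 ± 0.657 against Ezh2 null cells (adjusted p = 0.0133) and of 0.12 ± 0.657 against control cells (95% interval -1.41 to 1.65). Foxf1 was 7.68 and 7.99, which was 1.33 ± 0.302 lower than in Ezh2 null cells (adjusted p = 0.0428) and not called against control cells (0.65 ± 0.302, 95% interval -0.05 to 1.35). Foxa1 was 6.83 and 6.70, lower than in Ezh2 null cells by 0.92 ± 0.0874 (adjusted p = 0.00409). Within replicate numbers it stood 0.33 and 0.19 above control cells, which was not called. With these 3, Foxd1 was called higher, at 9.56 and 9.72 in Ezh2 pre-rescue cells against 9.29 and 9.33 in Ezh2 null cells (0.33 ± 0.0737, adjusted p = 0.0411). Within replicate numbers, Foxd1 stood above control by 0.10 and 0.04 in Ezh2 null and 0.37 and 0.42 in Ezh2 pre-rescue cells. It stood above control by 0.41 and 0.34 in Ezh1 pre-rescue and by 0.37 and 0.35 in Ezh2 post-rescue cells. None of these differences from control cells was called. In Ezh2 pre-rescue against Ezh2 null cells, the counts of 1 higher and 3 lower stand against 3.15% and 4% of all genes. In the same comparison 3 of 9 fibroblast markers were higher (median change 0.72) and 3 of 15 mitotic genes lower, and their part in the members' changes was not tested. Without single arrays these calls failed, for Foxp2 without Ezh2 null replicate 2 (adjusted p = 0.0617) or either Ezh2 pre-rescue replicate (0.0942 and 0.122), for Foxa1 without Ezh2 pre-rescue replicate 2 (adjusted p = 0.0675), for Foxf1 without any Ezh2 null, Ezh1 pre-rescue or Ezh2 pre-rescue array (adjusted p = 0.0625 to 0.236), and for Foxd1 without any array but those of control (adjusted p = 0.0763 to 0.293). Against control cells no member was called in Ezh2 pre-rescue cells, where 0% of all genes were called and 3 members had an unadjusted p under 0.05.

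In cells given retroviral Ezh1 before the deletion, Foxf1 and Foxa1 were called against Ezh2 null cells and Foxp2 was not. Foxf1 was 7.49 and 6.94 in Ezh1 pre-rescue cells, which was 1.94 ± 0.302 lower than in Ezh2 null cells (adjusted p = 0.0279) and overlapped control cells. Foxa1 was 6.89 and 6.78, lower than in Ezh2 null cells by 0.85 ± 0.0874 (adjusted p = 0.00874). Within replicate numbers it stood 0.39 and 0.27 above control cells, which was not called. Foxf1 and Foxa1 were the 2 members called against Ezh2 null cells, both lower, against 1.44% of all genes. Foxp2 had replicates far apart, 6.14 and 8.54, between the levels of Ezh2 null and control cells. Its change was -2.53 ± 0.657 against Ezh2 null cells (adjusted p = 0.0836) and 2.18 ± 0.657 against control cells (adjusted p = 0.35), and within replicate numbers 0.70 and 3.65 against control cells. Against Ezh2 pre-rescue cells the Foxp2 difference was 2.06 ± 0.657 (95% interval 0.53 to 3.59, adjusted p = 1). No member was called between Ezh1 pre-rescue and Ezh2 pre-rescue cells (1 at an unadjusted p under 0.05, 0.00531% of all genes called) or between Ezh1 pre-rescue and control cells (6 at an unadjusted p under 0.05, 0.0106% of all genes called). The Foxf1 call was lost without Ezh2 null replicate 2 (adjusted p = 0.118) or either Ezh1 pre-rescue replicate (0.157 and 0.176), and the Foxa1 call without either Ezh1 pre-rescue replicate (adjusted p = 0.0822 and 0.0955).

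Where Ezh2 was returned after the deletion, Foxp2 and Foxa1 stood at different ends of their ranges. Foxp2 was 10.79 and 9.98 in Ezh2 post-rescue cells, above both Ezh2 null arrays, 5.22 ± 0.657 over control cells (adjusted p = 0.0191) and 0.52 ± 0.657 over Ezh2 null cells (adjusted p = 0.808). It was the single member called against control cells, where 0.51% of all genes were higher. Foxa1 was 6.72 and 6.66, lower than in Ezh2 null cells by 1.00 ± 0.0874 (adjusted p = 0.00949) and 0.18 ± 0.0874 above control cells (95% interval -0.02 to 0.39, adjusted p = 0.595). It was the single member called against Ezh2 null cells, where 0.409% of all genes were lower. Foxf1 was 9.23 and 8.27, with 1 array at the level of Ezh2 null cells and the other nearly midway to control cells, and was called neither against control cells (1.57 ± 0.302, adjusted p = 0.0875) nor against Ezh2 null cells (-0.41 ± 0.302, adjusted p = 0.628). Within replicate numbers, Foxf1 stood 2.25 and 0.89 above control cells. The Foxp2 call was lost without control replicate 2 (adjusted p = 0.053) or either Ezh2 post-rescue replicate (0.277 and 0.0816), and the Foxa1 call without either Ezh2 post-rescue replicate (adjusted p = 0.116 and 0.0878). The control and Ezh2 null arrays enter several of these comparisons, which are therefore not independent of each other.

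Genes that act with forkhead factors were counted from 4 lists, chosen with earlier results known. Of 13 measured hedgehog pathway genes, which act upstream of Foxf1 in lung and gut, 3 were higher and 1 lower at day 32, against 18.4% and 14.2% of all genes. Hhip, which binds and limits hedgehog ligands, was 1.35 ± 0.107 higher (adjusted p = 1.39e-05), Gli1, the transcriptional readout of the pathway, 0.87 ± 0.114 higher (adjusted p = 0.000303), Smo, the signalling receptor, 0.42 ± 0.118 higher (adjusted p = 0.0206), and Boc, a ligand co-receptor, fell by 0.29 ± 0.081 (adjusted p = 0.0228). Hhip was higher at day 5 already (1.04 ± 0.107, adjusted p = 0.000261), when Foxf1 was 0.39 higher, while Ptch1, the hedgehog receptor and a target of the pathway, was lower, at 8.65 and 8.56 on day 5 arrays against 8.90 and 9.02 on vehicle arrays (by 0.36 ± 0.0846, adjusted p = 0.0188), and Gli1 changed by -0.36 ± 0.114 (adjusted p = 0.0598). Gli1 was the single hedgehog gene called in Ezh2 null against control cells (0.87 ± 0.16, adjusted p = 0.0422), where 1.2% of all genes were higher. Hhip was not called there, at 8.36 and 8.04 in Ezh2 null cells against 5.86 and 6.88 in control cells. The list's median change at day 32 was 0.07, beside -0.02 over all genes.

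Of 20 measured FoxO targets and regulators, 3 were higher and 9 lower at day 32, against 18.4% and 14.2% of all genes, with a median change of -0.11. Klf2, an endothelial and lymphocyte factor, fell by 1.46 ± 0.0774 (adjusted p = 1.28e-06), Fbxo32, a ubiquitin ligase of muscle wasting, by 0.95 ± 0.0733 (adjusted p = 1.19e-05), and Cat, the gene of catalase, by 0.68 ± 0.0774 (adjusted p = 0.000121), while Bcl6, a transcriptional repressor, rose by 0.81 ± 0.0794 (adjusted p = 5.14e-05). At day 5, when Foxo1 was highest, 5 of the 20 were higher and 2 lower, against 11% and 5.72% of all genes. None of the 20 was called in Ezh2 null against control cells, where 225 of 18820 genes were higher and 142 lower. Bcl6 was 6.54 and 6.83 in Ezh2 null cells against 5.77 and 5.97 in control cells. In the same order, Klf2 was 7.78 and 7.40 against 7.995 and 8.42, and Fbxo32 7.99 and 7.79 against 8.33 and 9.002. Cat was 10.68 and 10.64 against 10.70 and 11.06. Of 15 measured FoxP partners and targets, 2 were higher and 3 lower at day 32, against the same 18.4% and 14.2% of all genes. Srpx2, which FOXP2 represses in neurons, fell by 1.61 ± 0.0683 (adjusted p = 3.68e-07), Mef2c, a muscle and neuron factor, by 0.54 ± 0.0726 (adjusted p = 0.000355) and Nfatc1, a factor that pairs with FoxP proteins in lymphocytes, by 0.41 ± 0.0912 (adjusted p = 0.00709), and Gatad2a, a corepressor subunit, rose by 0.48 ± 0.0957 (adjusted p = 0.00365). In Ezh2 null against control cells, Srpx2 changed by -1.74 ± 0.444 (adjusted p = 0.111), and Nfatc1 was the single FoxP partner called, lower by 0.48 ± 0.0873 (adjusted p = 0.0422).

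Of 15 measured mitotic genes known as FoxM1 targets, none was higher and 12 were lower at day 5. Of all genes, 11% were higher and 5.72% lower at that time. All 15 were higher at day 18 and at day 32, against 15.2% and 18.4% of all genes. The median changes were -0.51 at day 5, 0.70 at day 18 and 0.84 at day 32. Birc5, which encodes survivin, fell by 0.64 ± 0.0703 at day 5 (adjusted p = 0.000368) but was 1.101 ± 0.0703 above vehicle at day 32 (adjusted p = 4.01e-06). Cdc25c, a phosphatase that starts mitosis, rose by 1.22 ± 0.0928 at day 32 (adjusted p = 1.08e-05), Cdca8, a subunit of the complex of survivin, by 0.92 ± 0.0732 (adjusted p = 1.4e-05) and Top2a, the topoisomerase of mitotic chromosomes, by 0.77 ± 0.0716 (adjusted p = 3.51e-05). None of the 15 was called in Ezh2 null against control cells, where 225 of 18820 genes were higher and 142 lower. In Ezh2 pre-rescue against Ezh2 null cells 3 were lower, against 4% of all genes (median change over the 15 of -0.48). Cell cycle genes thus moved in opposite directions at day 5 and at the later times, and their part in the members' changes was not tested.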

How the data were processed

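RNA of 18 arrays (Affymetrix Mouse Gene 1.1 ST, 2 per group) was analysed from the log2 values the authors deposited, which they made with RMA in the oligo package; the versions were not given. The time course (8 arrays) and the rescue experiment (10 arrays) were normalized apart. The methods describe a linear-model correction of a batch between first and second replicates of the rescue experiment, and whether the deposited values carry it is not given in the sources used here. Of 28440 probe sets, 21217 carried 1 symbol, 1881 several and 5342 none, and the highest-mean probe set stood for each of 18820 genes.

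Comparisons between groups used lmFit and eBayes of limma 3.58.1 (R 4.3.3), two-sided and with Benjamini-Hochberg adjustment over all genes, separately for each experiment, with the replicate number as a block in the rescue experiment and none in the time course. Errors after ± are standard errors of the log2 change, and calls were made below an adjusted p of 0.05. The difference between the changes of the 2 experiments was fitted on all 18 arrays. In the time course, replicate numbers were not taken to pair the samples, and deviations of same-numbered arrays correlated at -0.07 to 0.05. In the rescue experiment, the block takes same-numbered arrays together, and their deviations correlated at -0.43 to 0.54. A correction already in the deposited rescue values could itself lower these correlations, so that they do not show the absence of a batch. The fit was tested on simulated data with known changes. Alternatives were quantile normalization, median centring, a filter on the lowest 30% of genes, the mean of probe sets, limma trend, 1 fit over all arrays, the block added or left out, and each array left out. The number of arrays limits the precision.

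Named with values were members called at 2-fold or more, members called in Ezh2 null or Ezh2 rescue comparisons, and the member with the highest mean of each subfamily. The other members under 2-fold are named with their values because their calls are few. Of each related list, up to 4 genes with the smallest adjusted p at day 32 were named. Members and lists were chosen with earlier results of these data known. Besides fibroblast, epithelial and endothelial markers, those of blood, neuronal, pluripotent, keratinocyte and ciliated cells were read: Cd68, Map2 and Sox2 alone stood above the median of all genes in the time course, and Krt10 as well in some rescue groups. Promoters, chromosomes and gene order came from RefSeq (GRCm38.p6).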

Additional observations from a re-analysis of the deposited data

Results flagged for a closer look

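Effects that differed between the experiments were those of Foxf1, Foxf2 and Foxo3, whose change in Ezh2 null against control cells less that at day 32 against vehicle was -1.90, -0.95 and 0.49 on the log2 scale (limma adjusted p = 0.00484, 0.00459 and 0.049).

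Effects that differed between times, as log2 changes of day 18 against day 5, were 5.54 for Foxp2, 3.39 for Foxf1, 1.53 for Foxf2, 0.98 for Foxd2, 0.88 for Foxa1, -0.27 for Foxk1 (-0.13 with the mean of its probe sets), -0.29 for Foxj2, -0.30 for Foxd1, -0.32 for Foxn3, -0.41 for Foxs1, -0.55 for Foxo1 and -0.58 for Foxo3. Between day 32 and day 18, Foxo4 changed by -0.47.

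One signal came from a probe set outside the members, annotated to both Tex52 and Foxm1, the forkhead factor of mitotic genes. Its log2 values were 8.17 and 8.31 in vehicle cells, 7.80 and 7.96 on day 5 arrays, 8.92 and 9.10 on day 18 arrays, and 9.19 and 9.11 on day 32 arrays. The changes against vehicle were -0.36 at day 5, 0.78 at day 18 and 0.91 at day 32 (limma adjusted p = 0.0388, 0.000525 and 0.000132), and which of the 2 genes gave them cannot be told from this probe set.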

How the results depend on the processing

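Of 746 values of 51 member results under alternatives, 655 kept direction and side of the threshold, 91 lost the call and 0 reversed, and 23 results lost no call under any alternative. Counts of members called are in either direction, and the shares of all genes called under each alternative are not given here. With median centring they were 9 at day 5 and 22 at day 18 against vehicle, where 4 and 8 were called as deposited, and 2 in Ezh2 post-rescue against control cells. With limma trend, 8 were called at day 5 and 2 between day 32 and day 18, and the mean of probe sets also gave 2 there. With 1 fit over all 18 arrays, counts were 2 at day 5, 0 between day 32 and day 18, and against control cells 5 for Ezh2 null, 1 for Ezh1 pre-rescue, 1 for Ezh2 pre-rescue and 4 for Ezh2 post-rescue, and against Ezh2 null cells 6 in Ezh1 pre-rescue and 2 in Ezh2 post-rescue cells. Without the replicate block, 2 were called in Ezh2 post-rescue against Ezh2 null cells. With a replicate block added to the time course, counts were 4, 8 and 12 against vehicle, 11 between day 18 and day 5 and 1 between day 32 and day 18, and the call lost was that of Foxj2 (adjusted p = 0.0559). The cause of these moves was not tested.

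Leaving out 1 array at a time, with the lone array assumed to vary like the other groups, gave 2 to 5 members at day 5, 6 to 10 at day 18 and 8 to 13 at day 32 against vehicle, 9 to 13 between day 18 and day 5 and 0 to 1 between day 32 and day 18. In the rescue experiment it gave 1 to 3 in Ezh2 null, 0 to 1 in Ezh1 pre-rescue, 0 in Ezh2 pre-rescue and 0 to 2 in Ezh2 post-rescue against control cells. Against Ezh2 null cells it gave 0 to 5 for either pre-rescue and 0 to 2 in Ezh2 post-rescue cells, and 0 to 1 between the pre-rescues. Calls of members at low signal, such as Foxa3 and Foxr1, rest on small differences between 2 arrays a group.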
